A study of Mus musculus with 6 samples.

Results

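MERVL is an endogenous retrovirus of the mouse genome, and its transcripts were examined here copy by copy. A complete provirus consists of an internal part, annotated MERVL-int, which carries the viral coding regions, and a long terminal repeat (LTR) at each end, annotated MT2_Mm, which holds the promoter. Many LTRs in the genome stand alone. MERVL is transcribed in the 2-cell embryo, and in cultures of embryonic stem cells it marks a rare state, called 2-cell-like, in which MT2_Mm also serves as an alternative promoter for host genes. The copies were taken from the table of single transposable element (TE) copies by the element named in the row label. Of 26255 copies, 459 belonged to these elements, 349 to MERVL-int and 110 to MT2_Mm.

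The study compared 3 samples of mouse E14 embryonic stem cells in which Dot1l had been knocked out with CRISPR/Cas9 (genotype label Dot1L-/-, here Dot1L-KO) with 3 samples of wild-type cells (WT). Dot1l encodes a histone H3 methyltransferase whose mark lies along transcribed genes. Both groups grew in serum with LIF, were labelled day 14, and gave total RNA. Whether the Dot1L-KO samples came from 1 clone or several is not stated in the labels, nor is what the day is counted from.

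The values are the authors' own comparison, without values per sample, so the spread of single libraries, and whether the 3 samples of the groups overlap, cannot be shown here; p-values reflect only how far these samples vary, and that variation may be technical. For each copy the authors' deposited table gives the normalized count averaged over all libraries, the log2 of the fold change, the standard error (SE) of that value, and a p-value adjusted over all copies. The level in each group was derived from the mean and the fold change, taking the groups as equal in size, and is called the implied level below. Which genotype stands on top of the ratio is not recorded in the files. Positive values were taken to mean more RNA in Dot1L-KO, on the strength of what has been published about MERVL in such cells. All directions below rest on that reading, they are no independent evidence for it, and with the other reading each of them would be reversed, and values chosen by WT level would change. Positions of the copies were not analysed here, so no coordinates are given for them.

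Dot1l RNA itself did not settle the reading. Its log2 fold change was -0.16 ± 0.25 (SE) with an adjusted p of 0.845 by DESeq2 at a mean count of 5761, per the authors' deposited table. The 8 stem cell markers had mean counts of 5956 or more, and 0 of 8 passed the test of DESeq2 (1 higher and 0 lower at an unadjusted p under 0.05). All 5 tested markers of the 2-cell-like state were higher, with a summed implied level of 1129 in Dot1L-KO and 15.8 in WT. Over all 19564 genes tested 6.58% were called, 5.34% higher and 1.25% lower. Markers of other cell types were present as well. Of 8 primitive endoderm markers 6 were higher and 0 lower, with a summed implied level of 6954 in Dot1L-KO and 3413 in WT. Of 7 fibroblast markers 4 were higher and 0 lower, with a summed level of 9509 in Dot1L-KO and 11375 in WT, and of 6 trophectoderm markers 2 were higher and 0 lower, with 1923 in Dot1L-KO and 1045 in WT. None of these markers had an implied Dot1L-KO level of 0, and Elf5, a trophoblast transcription factor, had no WT reads. Their part in the MERVL result was not tested. In bulk RNA, more cells of a type and more RNA per cell cannot be told apart.

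As subfamilies, both parts of MERVL were higher in Dot1L-KO. The MERVL-int total had an implied level of 18092 normalized counts in Dot1L-KO and 4660 in WT, and the MT2_Mm total 4805 in Dot1L-KO and 1538 in WT. The log2 fold change of MERVL-int was 1.96 ± 0.38 (SE), with an adjusted p of 0.000107 by DESeq2 over 936 subfamilies, per the authors' deposited table. For MT2_Mm the authors' deposited table has 1.64 ± 0.41, with an adjusted p of 0.00979 by DESeq2. Of all subfamilies 0.748% were called, 0.641% higher, and these are 2 of the 6 called higher. Their intervals overlapped widely, from 1.22 to 2.70 for MERVL-int and from 0.85 to 2.44 for MT2_Mm (95%, from the SE). The difference between them was not tested, since it needs values per sample. Measured by its mean of 11376, MERVL-int ranked 16 among the subfamilies, and MT2_Mm with 3172 ranked 60.

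As subfamily totals, none of the related elements listed beside them passed the test. MT2A, MT2B, MT2B1, MT2B2 and MT2C_Mm are older LTRs related to MT2_Mm, MERVL_2A-int is a related internal part, and ORR1A0 and MTA_Mm belong to the non-autonomous MaLR elements, of which MTA_Mm is known for transcripts in the oocyte. Among 12 such rows, with IAPEz-int of the ERVK class as an outside reference, 0 passed the test of DESeq2, and 1 did so at an unadjusted p under 0.05. Their log2 fold changes ran from -0.61 for IAPEz-int to 0.36 for ERVL-B4-int, per the authors' deposited table. MERVL_2A-int, at a mean of 1743, had 0.22 ± 0.19, with a 95% interval of -0.15 to 0.59, in the authors' deposited table. MT2B, at a mean of 2233, had -0.06 ± 0.14 in the same source, the authors' deposited table. A missed threshold does not show that these rows were equal between the genotypes, but both intervals end below the lower bound of MT2_Mm. The intervals of ERVL-int and ERVL-B4-int, at means of 27.8 and 114, ended above that bound, at 1.11 and 1.05.

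**Figure D1:**
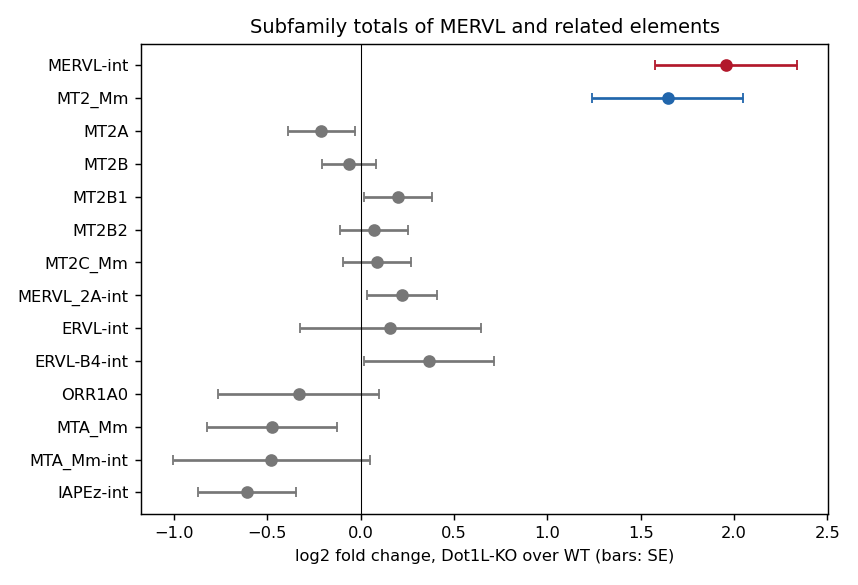
Log2 fold change (Dot1L-KO over WT) of the subfamily totals from the authors' comparison, one row per element, points with SE bars; 3 samples per group. MERVL-int at 1.96 and MT2_Mm at 1.64 stand to the right of the 12 comparison rows, which lie between -0.61 and 0.36.

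Among single copies, the rise was spread over a large part of the elements listed. Of the 348 MERVL-int copies with a p-value, 140 were called higher in Dot1L-KO and 0 lower, which is 40.2%. Of 110 MT2_Mm copies, 29 were called higher and 0 lower, or 26.4%. Over all 26204 copies tested 1.11% were called, 0.878% higher and 0.229% lower, and over the copies outside both elements 0.237% were called higher (DESeq2, adjusted p under 0.05). At an unadjusted p under 0.05, 277 MERVL-int copies were higher and 0 lower, and 50 MT2_Mm copies were higher and 2 lower, against 2.88% higher and 1.82% lower over all copies. MERVL-int and MT2_Mm together made up 169 of the 230 copies called higher in the whole table, or 73.5%, and 0 of the 60 called lower.

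The sign of the fold change was positive for 339 of 349 MERVL-int copies and for 87 of 110 MT2_Mm copies, where 50.1% of all copies outside both elements were positive. The median log2 fold change was 4.08 for MERVL-int copies, with quartiles at 2.16 and 5.68. It was 2.09 for MT2_Mm copies, with quartiles at 0.39 and 5.79, so the LTR copies were more mixed. Over the copies outside both elements the median was 0.00. Ranked by this median, MERVL-int stood at place 1 and MT2_Mm at place 2 of 295 elements with at least 10 listed copies. Placing copies without WT reads at a bound instead of their fitted fold left medians of 3.71 for MERVL-int and 2.09 for MT2_Mm.

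**Figure D2:**
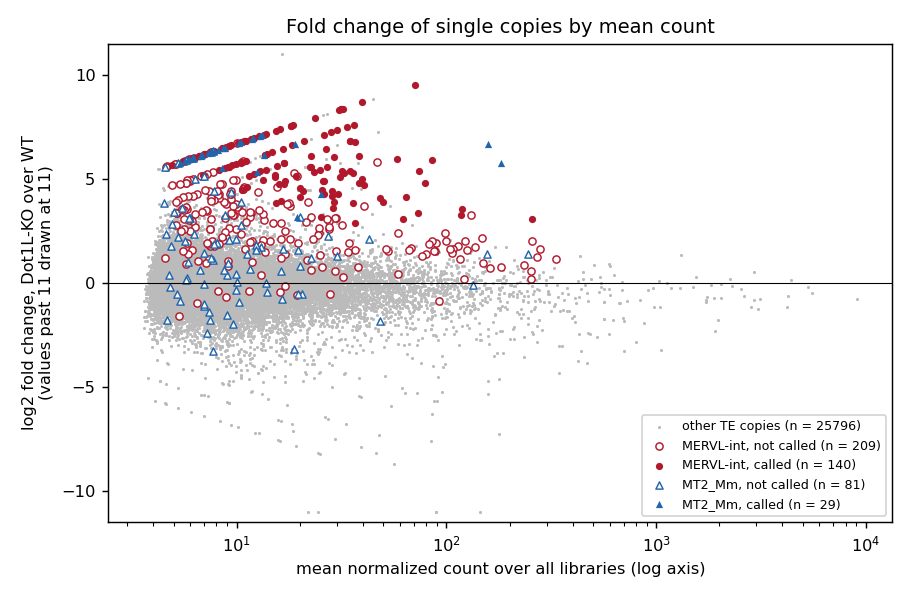
Log2 fold change (Dot1L-KO over WT) of each TE copy against its mean normalized count on a log axis; filled symbols passed an adjusted p under 0.05, open ones did not or, for 1 MERVL-int copy, had no p-value. Called copies form 140 filled circles (MERVL-int) and 29 filled triangles (MT2_Mm), all above 0, and the slanting upper edge holds copies without WT reads.

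These counts describe the copies that reached the table, not all copies in the genome. The lowest mean count listed was 3.61, while the numbers in the copy labels run up to 2579 for MERVL-int and 2654 for MT2_Mm. A copy that is silent in WT can pass such a floor only through its Dot1L-KO reads, and then has to differ. The implied WT level was below 3.61 in 241 of 349 MERVL-int copies (69.1%) and in 54 of 110 MT2_Mm copies (49.1%). The implied Dot1L-KO level was below it in 1 MERVL-int copy and in 4 MT2_Mm copies. Over the copies outside both elements the same shares were 8.17% in WT and 6.44% in Dot1L-KO.

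Read the other way, many listed copies had next to no RNA in WT. The lowest implied levels form steps, of which the first, near 0.19, stands for no reads and the next for 1 read over the 3 libraries. By these steps, 0 MERVL-int copies lacked reads in Dot1L-KO and 60 lacked them in WT, and 0 MT2_Mm copies lacked them in Dot1L-KO and 27 in WT. A further 37 MERVL-int copies and 5 MT2_Mm copies had 1 WT read. Over all copies listed, 21 lacked Dot1L-KO reads and 138 lacked WT reads, and 63.0% of the copies without WT reads were MERVL-int or MT2_Mm. With WT set to a floor of 3 reads over the group, taken as 1 normalized count per library, the 60 MERVL-int copies were at least 9.02-fold to at least 142-fold higher. The 27 MT2_Mm copies were at least 8.95-fold to at least 26.1-fold higher. These bounds leave out the error of the Dot1L-KO level. Without WT reads, a copy reaches the lowest listed mean only through Dot1L-KO reads, so the lower ends of both ranges largely follow from that floor. Of these copies 51 MERVL-int and 21 MT2_Mm copies were called higher. In the wider set with a WT level under 3.61, 126 of 240 tested MERVL-int copies and 27 of 54 MT2_Mm copies were called higher. Outside both elements 2.80% of 2106 tested copies of that set were. The median WT levels of these sets were 0.67, 0.28 and 2.90, so the sets are not matched.

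**Figure D3:**
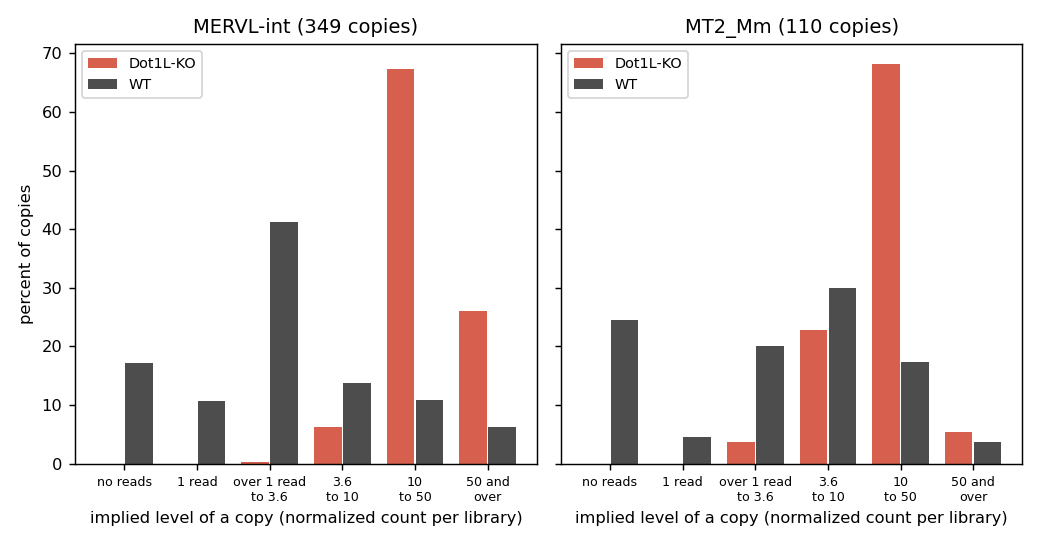
Percent of the 349 MERVL-int and 110 MT2_Mm copies in each class of implied level (normalized count per library), with Dot1L-KO bars left of WT bars. In Dot1L-KO 235 MERVL-int and 75 MT2_Mm copies lie between 10 and 50, whereas in WT 60 and 27 have no reads.

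Among copies whose implied WT level was itself at least 3.61, the shift was smaller. The floor applies to the mean of both groups, so this choice lessens the dependence on Dot1L-KO reads and does not remove it. Of 108 such MERVL-int copies 14 were called higher and 0 lower, with a median log2 fold change of 1.62. Of 56 such MT2_Mm copies 2 were called higher and 0 lower, with a median of 0.40. Among the 23640 tested copies outside both elements chosen the same way, 2 were called higher (0.00846%) and 60 lower, and their median was -0.08. The choice also favours copies that happened to be high in WT. It rests on which group is WT: with the other reading of the ratio it would fall on the level that was under 3.61 in 1 MERVL-int copy and 4 MT2_Mm copies, so the counts and medians would change, not the sign alone.

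Calls and folds differed between ranges of mean count. MERVL-int copies had a median mean count of 13.0 and MT2_Mm copies one of 8.57. Under a mean of 10, the median SE was 1.48 for MERVL-int on the log2 scale, and 37 of 137 copies were called. The smallest called log2 fold change among them was 5.20. Between 10 and 50, 92 of 163 tested MERVL-int copies were called with a median log2 fold change of 4.56. At a mean of 50 or more, where the median SE was 0.76, 11 of 48 were called and the median was 1.66. For MT2_Mm the calls were 16 of 68 under a mean of 10, 11 of 37 between 10 and 50, and 2 of 5 at 50 or more, with medians of 2.37, 1.74 and 1.41. The copies outside both elements were called higher at 0.176%, 0.37% and 0.107% in the 3 ranges of mean, in rising order. In the same order 3 of 16441, 27 of 8370 and 30 of 935 tested were called lower. Their median log2 fold changes were 0.07, -0.08 and -0.37. Split at the median mean of all 459 copies, 11.01, the calls were 45 of 155 MERVL-int copies below it and 95 of 193 at or above it, and 18 of 74 MT2_Mm copies below it and 11 of 36 at or above it.

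**Figure D4:**
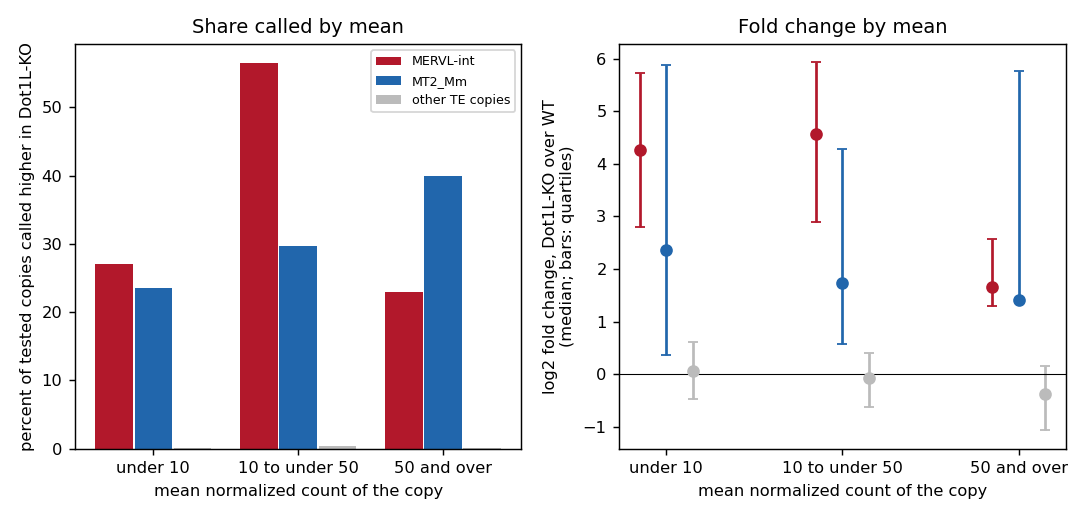
Left, percent of tested copies called higher in Dot1L-KO by range of mean normalized count; right, median log2 fold change (Dot1L-KO over WT) with quartiles. MERVL-int falls to a median of 1.66 at a mean of 50 or more, against 4.26 under 10. The other TE copies have medians of 0.07, -0.08 and -0.37 in rising order of mean, with at most 0.37% called higher.

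The most abundant MERVL-int copies were transcribed in WT already. MERVL-int_dup2269, the copy with the highest mean, had implied levels of 459 in Dot1L-KO and 206 in WT, with a log2 fold change of 1.16 ± 0.69 that did not pass (adjusted p of 0.99992 by DESeq2, per the authors' deposited table). The copies next in order, MERVL-int_dup477 and MERVL-int_dup191, had 421 and 381 in Dot1L-KO, against 137 and 160 in WT. MERVL-int_dup1981 had 410 in Dot1L-KO and 101 in WT. All of them pointed the same way, yet among the 5 highest only MERVL-int_dup2134 passed. It had 456 in Dot1L-KO and 53.6 in WT, a log2 fold change of 3.09 ± 0.83 with an adjusted p of 0.0218 by DESeq2, per the authors' deposited table.

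The calls among abundant copies follow the fold, and the implied WT level is computed from that fold, so the levels of called and uncalled copies are given as a description. Of the 11 MERVL-int copies with a mean of at least 50 that were called, the median implied level was 145 in Dot1L-KO and 6.78 in WT. MERVL-int_dup1708 had the largest fold of them, at 142 in Dot1L-KO with no WT reads, so it was at least 142-fold higher (adjusted p of 6.60e-07 by DESeq2, in the authors' deposited table). MERVL-int_dup1872 had 115 in Dot1L-KO and 1.83 in WT, MERVL-int_dup78 had 168 in Dot1L-KO and 2.77 in WT, and MERVL-int_dup1157 had 145 in Dot1L-KO and 3.43 in WT. Their log2 fold changes were 5.98 ± 1.13, 5.92 ± 1.14 and 5.40 ± 0.95 in the authors' deposited table, with MERVL-int_dup426 at 4.81 ± 1.17.

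The 37 abundant MERVL-int copies that did not pass had a median of 161 in Dot1L-KO and 51.7 in WT. Their log2 fold changes ran from -0.88 to 3.29, with 36 of 37 positive, and 17 were higher at an unadjusted p under 0.05. MERVL-int_dup994 had 269 in Dot1L-KO and 239 in WT, the highest WT level of any MERVL-int copy, with a log2 fold change of 0.17 ± 0.89 and a 95% interval of -1.57 to 1.91, based on the authors' deposited table. MERVL-int_dup622, with 129 in Dot1L-KO and 114 in WT, was alike. MERVL-int_dup675 was the exception in sign, with 64.5 in Dot1L-KO and 119 in WT, or -0.88 ± 0.72 in the authors' deposited table, which did not pass. At the other end MERVL-int_dup552 missed the threshold at 3.29 ± 1.00 (adjusted p of 0.0813 by DESeq2, per the authors' deposited table).

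Among the listed copies, the WT signal of MERVL-int sat on fewer copies than the Dot1L-KO signal. Summed over the listed copies, the implied level was 17098 in Dot1L-KO and 3890 in WT, a 4.40-fold ratio. The 10 highest copies held 20.4% of that sum in Dot1L-KO and 41.1% in WT, and 43 copies made up 50% of it in Dot1L-KO against 15 in WT. The lists of the 10 highest copies in Dot1L-KO and in WT shared 6 copies. The 10 highest in WT summed to 2763 in Dot1L-KO and 1598 in WT, and 0 of them passed the test of DESeq2, with log2 fold changes from -0.88 to 1.62. All other MERVL-int copies summed to 14335 in Dot1L-KO and 2292 in WT, or 2.64 on the log2 scale. Since the 10 were picked by their WT level, their lower folds are a description and were given no test.

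For MT2_Mm the shares held by the highest copies were alike in both groups, although only some copies were shared, and differed further down. Its copies summed to 2966 in Dot1L-KO and 999 in WT, and 7 copies made up 50% of the sum in each group. The 10 highest copies held 54.6% in Dot1L-KO and 57.0% in WT, and 4 copies were on both lists. The 20 highest held 64.3% in Dot1L-KO and 70.9% in WT, and 90% of the sum took 70 copies in Dot1L-KO and 45 in WT. Together both elements held 4.53% of the summed level of all TE copies in Dot1L-KO and 0.936% in WT. The copies listed cover 92.2% of the mean count of the MERVL-int subfamily and 62.5% of that of MT2_Mm, with the rest outside the copy table or counted otherwise. Listed MERVL-int copies summed to 17098 against a subfamily level of 18092 in Dot1L-KO, and to 3890 against 4660 in WT. Less of the WT level was thus listed. For MT2_Mm the sums were 2966 against 4805 in Dot1L-KO and 999 against 1538 in WT.

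**Figure D5:**
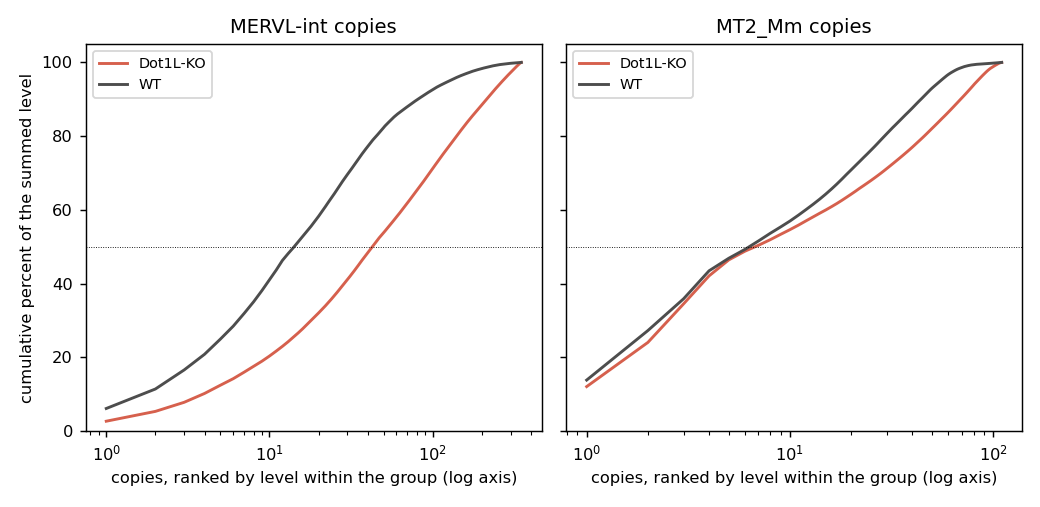
Cumulative percent of the summed implied level against the number of copies, ranked within each group on a log axis, for Dot1L-KO and WT. For MERVL-int 43 copies in Dot1L-KO and 15 in WT reach 50% (dotted line), while the MT2_Mm curves reach it at 7 copies each.

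The abundant MT2_Mm copies were of both kinds. MT2_Mm_dup514 had the highest mean, with 355 in Dot1L-KO and 134 in WT, and did not pass at 1.41 ± 0.62 (adjusted p of 0.727 by DESeq2, per the authors' deposited table). MT2_Mm_dup1075 was similar, with 224 in Dot1L-KO and 86.3 in WT. MT2_Mm_dup356 had 129 in Dot1L-KO and 138 in WT, or -0.11 ± 0.68 in the authors' deposited table. In contrast, MT2_Mm_dup1683 had 358 in Dot1L-KO and 6.58 in WT, and MT2_Mm_dup1684, which carries the next number, had 311 in Dot1L-KO and 2.98 in WT. These passed at 5.77 ± 1.15 and 6.71 ± 1.14, with adjusted p of 0.000353 and 2.28e-05 by DESeq2, in the authors' deposited table. MT2_Mm_dup1683 and MT2_Mm_dup514 had the highest Dot1L-KO levels of the element, and MT2_Mm_dup1684 came next.

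MT2_Mm also held the copies with the lowest folds. MT2_Mm_dup722 had 1.43 in Dot1L-KO and 13.9 in WT, and MT2_Mm_dup2353 had 3.73 in Dot1L-KO and 34.0 in WT. Their log2 fold changes were -3.29 ± 1.28 and -3.19 ± 1.30, with adjusted p of 0.429 and 0.534 by DESeq2, per the authors' deposited table. MT2_Mm_dup298, at 2.32 in Dot1L-KO and 12.1 in WT, did not pass either. Among MERVL-int copies the lowest folds were smaller in size, -1.58 ± 1.26 for MERVL-int_dup932 and -0.98 ± 1.62 for MERVL-int_dup603 in the authors' deposited table, at means of 5.28 and 6.43.

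Other families are given beside the 0.237% called higher over all copies outside both elements. Of 683 other ERVL copies 10 were called higher and 1 lower, which is 1.46% higher, with a median log2 fold change of 0.12. By element, 5 of 50 MT2B1, 2 of 71 MT2B, 1 of 28 MT2B2 and 1 of 61 MERVL_2A-int copies were called higher. None of 50 MT2A copies, of which 1 was called lower, and none of 22 MT2C_Mm copies were. Among 3139 tested MaLR copies there were 6 calls higher (0.191%) and 1 lower at a median of 0.04. Among 348 IAP copies there were 2 calls higher (0.575%) and 0 lower at a median of -0.32. A log2 fold change over 4 was seen in 176 MERVL-int copies (50.4%) and 38 MT2_Mm copies (34.5%), against 10 of the other ERVL copies (1.46%). These shares carry the same dependence on the floor of the table.

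Host genes known with MERVL were read beside the copies. Of 35 tested genes of the 2-cell-like state, several of which are described with transcripts that start in MT2_Mm, 25 were called higher and 1 lower, with a median log2 fold change of 5.00. The share over all genes was 5.34% higher and 1.25% lower. The 5 tested markers of the 2-cell-like state given above are among these 35 genes. The most abundant listed gene was Gm21761 (chromosome 13, 119912095 to 119929272 in mm10), a predicted gene with implied levels of 1243 in Dot1L-KO and 24.6 in WT. Gm5662 (chromosome 12, 88270640 to 88274500), another predicted gene, had 457 in Dot1L-KO and 9.42 in WT. The deubiquitinase gene Usp17le (chromosome 7, 104768049 to 104777470) had 263 in Dot1L-KO and 1.36 in WT. The gene that fell was Fgf1, a fibroblast growth factor, with 145 in Dot1L-KO and 341 in WT (log2 fold change -1.24 ± 0.34, adjusted p of 0.00683 by DESeq2, per the authors' deposited table). Many of these genes have near-identical copies, so their single values are uncertain.

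Of 17 tested genes listed here as activators or positive regulators of MERVL 5 were called higher and 0 lower, beside 5.34% higher and 1.25% lower over all genes. The list was a choice, and the role of its members, among them Tet1 and Tet2, was not tested. Of those called, Zscan4a, Zscan4d, Zscan4f and Zfp352 were also counted among the genes of the 2-cell-like state, so these counts overlap. Duxf3 (chromosome 10, 58229979 to 58232675), the multicopy homeobox factor Dux that binds MT2_Mm, had 20.3 in Dot1L-KO and no WT reads, at least 20.3-fold higher, with an adjusted p of 0.000216 by DESeq2 in the authors' deposited table. Zfp352 (chromosome 4, 90218820 to 90225702), a zinc finger gene of the 2-cell embryo, had 33.4 in Dot1L-KO and no WT reads, at least 33.4-fold higher. Zscan4d (chromosome 7, 11161374 to 11166159), a telomere regulator, had 648 in Dot1L-KO and 8.70 in WT. Zscan4f and Zscan4a passed too. Zscan4b, Zscan4c and Zscan4e did not pass, with adjusted p of 0.242, 0.114 and 0.237 by DESeq2 in the authors' deposited table. Their log2 fold changes were positive with wide errors, at 4.18 ± 1.97, 5.32 ± 2.08 and 4.62 ± 2.16. Listed factors expressed in ordinary stem cells did not pass. Dppa2 and Dppa4, which act upstream of Dux, had 0.19 ± 0.39 and -0.43 ± 0.32 in the authors' deposited table, and Trp53 had -0.38 ± 0.35. The demethylation enzyme gene Tet1, whose place among activators is not settled here, had -0.05 ± 0.44.

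Of 32 known repressors of MERVL 0 were higher and 1 lower, beside 5.34% higher and 1.25% lower over all genes, with a median log2 fold change of -0.04; at an unadjusted p under 0.05 there were 0 higher and 3 lower (DESeq2). A fall was called for Chaf1b (chromosome 16, 93883901 to 93906115), a subunit of the chromatin assembly factor CAF-1, with 2372 in Dot1L-KO and 4526 in WT (-0.93 ± 0.26, adjusted p of 0.0105 by DESeq2, per the authors' deposited table). Lin28a, an RNA-binding protein that acts with nucleolin on Dux, had 6556 in Dot1L-KO and 10199 in WT, and did not pass at -0.64 ± 0.29 in the authors' deposited table. L3mbtl2, a polycomb-related protein, had -0.60 ± 0.29 and Ehmt2, a histone H3 methyltransferase, -0.57 ± 0.31 there, also without passing in the authors' deposited table. Trim28, the corepressor of many endogenous retroviruses, had 92613 in Dot1L-KO and 97628 in WT.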

How the data were processed

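Total RNA of 6 libraries, 3 per genotype, was sequenced. Per the submitters' processing notes, the authors used HISAT2 2.1.0, mm10, featureCounts 2.0.0 and DESeq2. The DESeq2 version, and how strand, reads mapping to several places and low counts were treated, are not stated in the sources used here. Repeated elements carry that uncertainty. Per the file headers, the deposited signal is the mean over all libraries of normalized counts, the effect column holds a log2 fold change beside its SE, the score is the Wald statistic, and the p-value is the Wald p with its Benjamini-Hochberg adjustment. Recomputing the score and the adjustment gave the same values. There are 3 tables (19571 genes, 938 subfamilies, 26255 copies), and no values per sample, so depth per library is unknown and no refit was made. Calls use an adjusted p under 0.05.

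Implied group levels follow from the mean and the fold, under equal group sizes. A level under 0.25 was taken as no reads. The level formula was checked on simulated counts, only for copies with reads in both groups and with their exact ratio. The adjustment was checked on simulated p-values. The cut of 0.25 was not tested. Intervals come from the SE. Work was done in Python 3.11.15 with pandas 2.3.3. Gene coordinates are those of GENCODE M21, matched by symbol. The members and lists were chosen with earlier results of these data known. Copies named are, for each element, the 5 of highest mean, the 5 largest rises at a mean of at least 50, the 3 lowest folds, and copies with a mean of at least 50 that did not pass (of these, examples); genes are the 6 of smallest adjusted p and the 2 of highest mean in each list, of which examples are given. Fgf1, Dppa2, Dppa4, Zscan4b and Zscan4e were named after their values were seen. Sequences of the copies were not used here.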

Additional observations from a re-analysis of the deposited data

How the results depend on the processing

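Both subfamily folds and both medians kept their direction under the alternatives run, and 0 copies of either element were called lower under the 4 tried for that count. The calls shrank with stricter rules. At an adjusted p under 0.01 there were 89 MERVL-int and 16 MT2_Mm calls, by Bonferroni 33 and 3, and at a mean of at least 50 there were 11 and 2; at a mean of at least 10, MT2_Mm had 13. Restricting to copies whose WT level alone reached the lowest mean, chosen after seeing the data, left 14 and 2 calls with medians of 1.62 and 0.40. The MERVL-int median was 1.66 at a mean of at least 50. Fewer copies are eligible under the limits on mean and WT level, while the stricter thresholds keep all tested copies. Without the 10 copies of highest WT level, also chosen after seeing the data, the summed log2 ratio was 2.64 for MERVL-int and 2.31 for MT2_Mm. At an adjusted p under 0.01, 0 repressors were called lower. Centring within 20 bins of mean turned the log2 fold change of MT2_Mm_dup356 to 0.16, which was not called, and brought MERVL-int_dup552 past the threshold (adjusted p of 0.0415, the lowest over its alternatives, which reach 1 by Bonferroni). No paired analysis was possible because the deposited tables hold no values per sample, and leaving out replicates and a refit with edgeR were not run for that reason. Among copies under a mean of 10 only large folds were called. The smallest called log2 fold change there was 5.20 for MERVL-int and 5.51 for MT2_Mm.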

Other observations

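Copies of MERVL whose labels carry consecutive numbers were compared with each other, without any knowledge of their positions. MERVL-int had 27 such pairs, whose log2 fold changes differed by a median of 3.19, against 2.099 over all pairs of MERVL-int copies; in 4 pairs the signs were opposite. MT2_Mm had 11 such pairs with a median difference of 2.43, against 2.97 over all pairs, and 6 pairs had opposite signs. MT2_Mm_dup1683 and MT2_Mm_dup1684, at 358 and 311 in Dot1L-KO and 6.58 and 2.98 in WT, were the 1 MT2_Mm pair in which both log2 fold changes exceeded 4. Among MERVL-int pairs there were 5. No test was made.

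One MERVL-int copy had no p-value in the authors' deposited table, MERVL-int_dup1352, with implied levels of 91.3 in Dot1L-KO and 1.63 in WT and a log2 fold change of 5.80 ± 1.32. Its difference is therefore untested. By default DESeq2 withholds the p-value of a row in which a count is flagged as an outlier. The levels and the fold of this copy may thus rest on a single library, which cannot be seen without values per sample. Outside both elements, RLTR45-int had the next highest median among elements with at least 10 listed copies, 2.06 over 21 copies, of which 8 were called higher and 0 lower.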
